A study of Mus musculus with 16 samples.

Results

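The genes described here are the 10 that carry out V(D)J recombination and the joining of its DNA ends: *Rag1*, *Rag2*, *Dntt*, *Xrcc5*, *Xrcc6*, *Prkdc*, *Dclre1c*, *Lig4*, *Xrcc4* and *Nhej1*. They were chosen by name for what their proteins do, and all 10 were found among the 24984 genes of the DP table and the 24974 genes of the CD8 table. The series is RNA-seq of mouse thymocytes with and without a conditional knockout of *Tox4*, an HMG box gene. DP (CD4 and CD8 double positive) thymocytes were measured in 3 control samples (Tox4;F/F) and 3 cKO samples (Tox4;F/F;Lck+). CD8 thymocytes, sorted as TCRβ+CD8+ cells, were measured in 5 control samples (Tox4;F/F) and 5 cKO samples (Tox4;F/F;Lck-cre). All mice were on the C57BL/6 background and 6 to 8 weeks old, as sex-matched littermates. The control mice carry the floxed *Tox4* allele without Cre. In the cKO mice Cre comes from the *Lck* proximal promoter, which acts from the DN3 stage on, so the deletion of exons 4 to 6 precedes both cell types. Replicates of the genomic assays are described as biological, but how many animals went into each sample is not stated, so the p-values measure only the spread between these samples.

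V(D)J recombination assembles the variable part of antigen receptor genes from separate segments. The RAG1 and RAG2 proteins cut the DNA beside the segments, and the nonhomologous end joining machinery opens, trims and ligates the ends, with terminal transferase adding bases to them. In the thymus the T cell receptor β gene is assembled at the DN stage and the α gene at the DP stage, and the *Rag* genes are shut off once a DP cell has been positively selected. The end joining factors are also used by all other cells to repair double strand breaks.

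The counted fragments numbered 16524506, 18484568 and 17221704 in DP control samples 1 to 3, 21154634, 14583336 and 25981683 in DP cKO samples, 9420085, 10882293, 9899833, 10949265 and 13530783 in CD8 control samples 1 to 5, and 11687062, 11828492, 8905915, 8894000 and 8514135 in CD8 cKO samples. Values per sample are given below as normalized CPM, counts scaled to a common library size over all 16 samples, and comparisons between genes as TPM, which also divides by exonic length.

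*Tox4* was measured first as a check of the labels. Its level was 149, 165 and 173 CPM in the DP control samples 1 to 3 and 128, 132 and 129 CPM in the DP cKO samples. In the CD8 control samples 1 to 5 it was 195, 193, 205, 208 and 184 CPM, and in the CD8 cKO samples 172, 190, 179, 239 and 168 CPM. All DP cKO samples lay below all DP controls, whereas in CD8 cells the genotypes overlapped, and the library labelled cKO replicate 4 was above every CD8 control. The log2 fold change was -0.32 in DP cells (SE, the standard error, 0.11, adjusted p = 0.381 by edgeR's quasi-likelihood test) and -0.06 in CD8 cells (SE 0.0985, adjusted p = 0.979). The counts cover the whole exonic length of the gene (4458 bases), deleted exons or not, so they do not show how much of exons 4 to 6 was left. *Tox4* counts thus neither bear out nor contradict the genotype labels in CD8 cells, which were taken as given.

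The labelled cell types were checked against *Cd4* and *Cd8a*. *Cd4* was 1553 to 1845 CPM in DP control samples and 3.69 to 67.0 CPM in CD8 control samples, while *Cd8a* was 1931 to 2344 CPM and 1492 to 1646 CPM. The CD8 samples numbered 1 and 2, in both genotypes, stood apart from those numbered 3 to 5. *Cd4* was 60.2, 67.0, 68.2 and 78.4 CPM in these 4 samples and at most 10.5 CPM in the other 6. *Arpp21* and *Aqp11* split the samples in the same way, so that 3 of the 6 DP markers examined were higher in all 4 samples numbered 1 and 2, and the other 3 (*Ets2*, *Rmnd5a* and *Cd1d1*) overlapped. *Ccr7*, *S1pr1* and *Klf2*, 3 of 5 markers of mature single positive cells, were lower in all 4. CD8 control 1 also detected 17741 genes with at least 1 fragment, where the remaining CD8 samples detected 13708 to 15054. Results of the members in CD8 cells are therefore given with and without the samples numbered 1 and 2. In DP cells, replicate 1 of both genotypes was the highest in *Rag2* and *Lig4*.

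The sexes of the samples were read from *Xist*, which females express, and the Y-linked *Ddx3y*. All 6 DP samples had at most 0.623 CPM of *Xist* and 73.0 to 164 CPM of *Ddx3y*, the pattern of males. The CD8 samples numbered 1, 2 and 5 of both genotypes had 3401 to 5185 CPM of *Xist* and at most 1.29 CPM of *Ddx3y*, the pattern of females. Those numbered 3 and 4 had 0.189 to 29.8 CPM of *Xist* and 101 to 160 CPM of *Ddx3y*, as males do, with the highest *Xist* of these in the library labelled cKO replicate 4. Control and cKO samples were thus matched by sex within each cell type, while the comparison of CD8 with DP cells was not, and it was repeated with the male CD8 controls alone.

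The recombinase genes lie side by side and are read towards each other. *Rag1* is on the minus strand at chr2:101638252-101649532 and *Rag2* on the plus strand at chr2:101624712-101632528 (mm10), with 5723 bases between them. *Rag1* encodes the subunit that holds the DNA cutting site, and *Rag2* its partner. *Dntt*, at chr19:41029275-41059525 on the plus strand, encodes terminal transferase, the enzyme that adds untemplated bases to coding ends. Of the Ku pair, *Xrcc6* (Ku70) is at chr15:82016369-82040084 and *Xrcc5* (Ku80) at chr1:72307421-72394953, both on the plus strand.

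Promoter sequences are shown for *Rag1*, *Rag2* and *Dntt*, the 3 members with the largest decreases from DP to CD8 cells, and for the Ku pair, whose mRNAs differed between the cell types in opposite directions. They come from RefSeq (GRCm38.p6), 300 bases each from 250 before to 50 after the gene start, and 9 of the 10 members matched an entry. *Prkdc* did not. The windows are chr2:101649483-101649782 on the minus strand for *Rag1*, chr2:101624462-101624761 for *Rag2*, chr19:41029025-41029324 for *Dntt*, chr15:82016119-82016418 for *Xrcc6* and chr1:72307171-72307470 for *Xrcc5*, all 4 on the plus strand. Capitals mark matches, on either strand, to 4 motifs. The E box is CANNTG. The GATA motif was searched as GATAA. The RUNX motif was searched as TGTGGT. The GC box is GGGCGG.
Rag1: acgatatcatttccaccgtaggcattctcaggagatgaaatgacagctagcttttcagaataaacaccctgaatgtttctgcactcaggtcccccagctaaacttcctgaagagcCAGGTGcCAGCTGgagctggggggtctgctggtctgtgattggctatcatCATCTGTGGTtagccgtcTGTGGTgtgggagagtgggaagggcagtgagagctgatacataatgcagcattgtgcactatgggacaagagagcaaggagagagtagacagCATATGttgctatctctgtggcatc
Rag2: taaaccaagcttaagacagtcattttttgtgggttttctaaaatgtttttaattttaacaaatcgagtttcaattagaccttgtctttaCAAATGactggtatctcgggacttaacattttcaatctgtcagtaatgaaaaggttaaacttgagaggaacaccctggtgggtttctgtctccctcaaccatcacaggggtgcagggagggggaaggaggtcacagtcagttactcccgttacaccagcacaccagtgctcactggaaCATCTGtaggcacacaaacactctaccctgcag
Dntt: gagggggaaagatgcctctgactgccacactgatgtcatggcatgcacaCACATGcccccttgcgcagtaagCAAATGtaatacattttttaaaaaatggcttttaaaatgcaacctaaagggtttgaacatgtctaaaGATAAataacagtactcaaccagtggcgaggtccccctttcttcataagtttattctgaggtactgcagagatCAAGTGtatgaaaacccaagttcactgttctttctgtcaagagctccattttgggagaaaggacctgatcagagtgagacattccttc
Xrcc6: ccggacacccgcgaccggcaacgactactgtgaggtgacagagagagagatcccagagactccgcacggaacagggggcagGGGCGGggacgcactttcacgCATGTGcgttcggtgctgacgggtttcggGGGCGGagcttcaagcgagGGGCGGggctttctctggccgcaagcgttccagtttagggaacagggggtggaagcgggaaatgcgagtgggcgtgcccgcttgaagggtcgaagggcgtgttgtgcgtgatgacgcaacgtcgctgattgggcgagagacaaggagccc
Xrcc5: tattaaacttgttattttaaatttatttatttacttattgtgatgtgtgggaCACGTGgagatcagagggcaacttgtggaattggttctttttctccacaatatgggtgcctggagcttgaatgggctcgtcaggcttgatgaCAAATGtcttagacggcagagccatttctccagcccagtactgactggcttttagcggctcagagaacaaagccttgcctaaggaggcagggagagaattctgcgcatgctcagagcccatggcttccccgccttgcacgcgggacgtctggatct

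The *Rag1* window held 4 E boxes and 2 RUNX matches, 1 of which shares its first letters with an E box. *Rag2* held 2 E boxes, *Dntt* 3 E boxes and 1 GATA match, and *Xrcc5* 2 E boxes. *Xrcc6* held 1 E box and 3 GC boxes. Of 32841 promoters of the same length, 72.3% held an E box, 25.4% the GATA letters, 16.8% the RUNX letters and 35.7% a GC box, so a match to the E box letters is common. The windows also differed in base composition. *Rag1*, *Rag2* and *Dntt* held 3, 3 and 2 CpG dinucleotides, fewer than any other member with a window and below the median of 7 over all promoters. *Xrcc5*, *Nhej1* and *Dclre1c* held 9, 10 and 12, and *Xrcc6*, *Xrcc4* and both *Lig4* windows 29 to 31. The RefSeq start of *Nhej1* lies well upstream of the gene's end in the count table, so its window belongs to a start that the counted exons do not reach. A match of letters is a description of the window and no evidence of binding.

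In DP control cells the members spanned a wide range of levels per length. *Rag1* was the most abundant at 3607 ± 606 TPM (SD, n = 3), at place 5 of all genes, followed by *Dntt* at 2062 ± 72.1 TPM and *Xrcc6* at 482 ± 70.9 TPM. *Rag2* followed at 165 ± 65.5 TPM and *Lig4* at 71.1 ± 34.1 TPM. Down to *Lig4*, and between it and the next gene, the ranges of neighbours in this order did not overlap. *Dclre1c* (29.9 TPM), *Xrcc4* (29.9 TPM), *Xrcc5* (22.0 TPM), *Nhej1* (21.3 TPM) and *Prkdc* (17.8 TPM) made up the rest, and neighbours among these 5 overlapped. By raw fragments *Rag1* was at place 1 of all genes in 5 of the 6 DP samples and at place 3 in DP cKO 3, and it took 0.737% to 0.973% of all fragments in the control samples. The 10 members together took 0.968% to 1.24%.

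The order was different in CD8 control cells. Over all 5 samples *Dntt* at 68.4 ± 46.2 TPM (SD, n = 5) and *Xrcc6* at 59.9 ± 16.7 TPM came first, followed by *Prkdc* at 42.9 ± 2.77 TPM and *Xrcc5* at 41.0 ± 1.76 TPM. *Rag1* was at 25.5 ± 24.8 TPM, *Xrcc4* at 22.2 TPM, *Dclre1c* at 19.8 TPM, *Lig4* at 10.7 TPM, *Nhej1* at 10.6 TPM and *Rag2* at 3.62 ± 4.005 TPM. Neighbours in this order overlapped except *Xrcc6* and *Prkdc* (lowest 47.6 against highest 47.0 TPM) and *Dclre1c* and *Lig4* (19.0 against 17.2 TPM). In the samples numbered 3 to 5 alone *Dntt* was not first: *Xrcc6* was at 50.7 TPM, *Prkdc* at 43.99 TPM, *Dntt* at 41.1 TPM, *Xrcc5* at 40.8 TPM, *Xrcc4* at 21.4 TPM, *Dclre1c* at 19.6 TPM, *Nhej1* at 8.11 TPM, *Rag1* at 7.91 TPM, *Lig4* at 7.67 TPM and *Rag2* at 0.716 TPM. All members together took 0.0358% to 0.0576% of the fragments in the 5 CD8 control samples.

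The first comparison asks how the recombination and end joining genes differ between the stage that rearranges the α gene and the CD8 single positive stage, in control mice. Each cell type has its own count table, so cell type and experiment cannot be told apart. A call required an adjusted p below 0.05, a change of 1.5 times or more and a mean of 1 TPM or more. Of the 10 members 9 were called, 7 lower in CD8 cells and 2 higher. Over all 11758 genes tested 44.3% were called, 22.3% lower and 22.0% higher, so a call as such is common in this comparison. The median log2 fold change was -1.95 over the members and -0.01 over all genes tested. Without the CD8 samples numbered 1 and 2, again 7 members were called lower and 2 higher, and the same with only the 2 male CD8 controls, numbered 3 and 4. With these 2, the log2 fold change was -8.85 for *Rag1*, -7.95 for *Rag2*, -5.74 for *Dntt*, -3.35 for *Xrcc6*, -3.25 for *Lig4*, -1.19 for *Nhej1*, -0.64 for *Dclre1c*, -0.45 for *Xrcc4*, 0.81 for *Xrcc5* and 1.26 for *Prkdc*.

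*Rag1* was 9108, 7116 and 7957 CPM in the DP control samples and 90.9, 123, 22.4, 12.2 and 15.7 CPM in the CD8 control samples 1 to 5. *Rag2* was 263, 156 and 144 CPM in DP and 9.24, 7.71, 1.13, 0.379 and 0.827 CPM in CD8 cells, the last 3 from 11, 4 and 11 fragments. Both genes were far lower in every CD8 sample than in any DP sample, and within CD8 cells samples 1 and 2 were several times above samples 3 to 5. The log2 fold change of *Rag1* was -7.23 (SE 0.74, adjusted p = 6.05e-06 by edgeR's quasi-likelihood test). Without the samples numbered 1 and 2 it was -8.90 (SE 0.25, adjusted p = 9.77e-09). For *Rag2* it was -5.62 (SE 0.65, adjusted p = 1.66e-05), and -7.89 without these samples (SE 0.36, adjusted p = 9.72e-08). In bulk samples fewer cells of a type and less RNA per cell cannot be told apart. The ratio of *Rag1* to *Rag2* in TPM was 17.8 to 28.4 in the DP control samples and 5.06 to 16.6 in the CD8 control samples. It was 5.06 and 8.18 in CD8 controls 1 and 2 and 9.77 to 16.6 in CD8 controls 3 to 5, which had few *Rag2* fragments. In the cKO samples the cell types overlapped, at 14.8 to 26.9 in DP and 6.77 to 19.0 in CD8 cells.

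*Dntt* was 1461, 1482 and 1488 CPM in the DP control samples and 47.7, 95.9, 30.7, 23.8 and 29.4 CPM in the CD8 control samples. The DP values were within a few percent of each other, and CD8 samples 1 and 2 were again the highest of their group. The log2 fold change was -5.00 (SE 0.38, adjusted p = 6.11e-07), and -5.71 without the samples numbered 1 and 2 (SE 0.12, adjusted p = 6.14e-09). For these 3 genes, and for every other member but *Nhej1*, a 2-sided exact permutation test of mean log2 CPM gave p = 0.0179, the smallest that 3 samples against 5 allow.

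**Figure D1:**
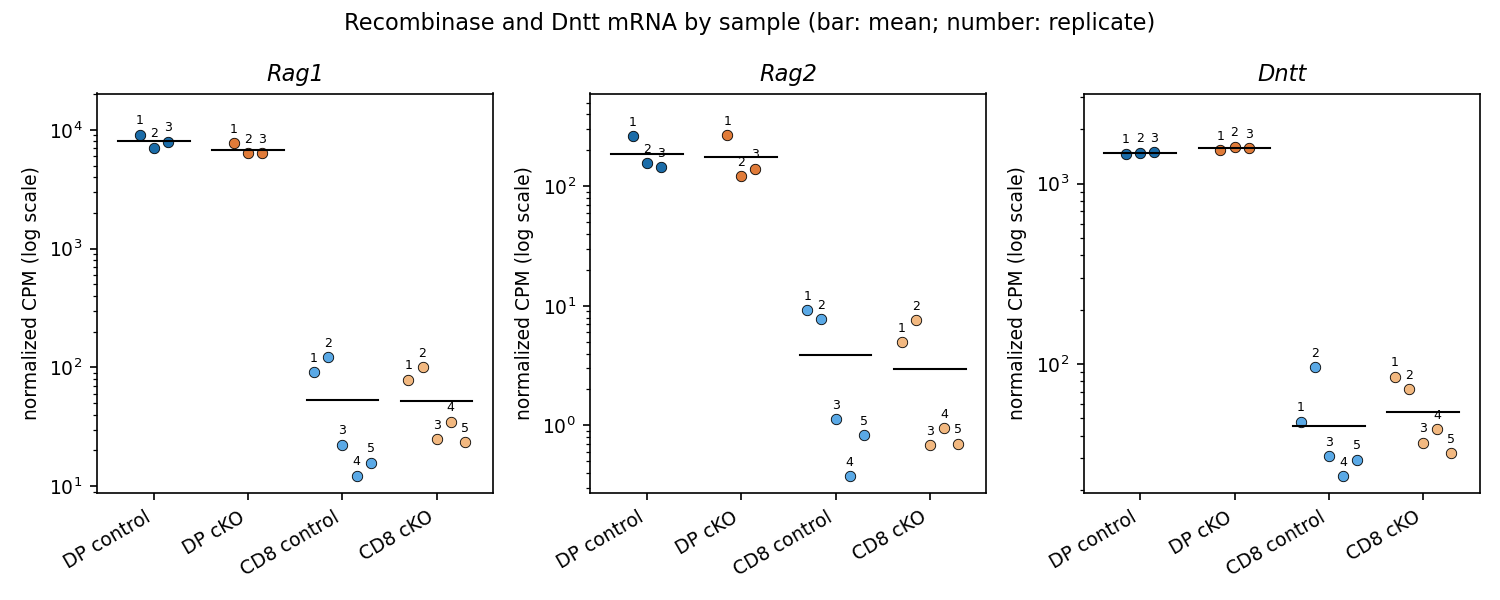
Normalized CPM (log scale) of Rag1, Rag2 and Dntt in each sample of the 4 groups; dots are samples with their replicate number and bars are group means. All CD8 samples lie below all DP samples, CD8 samples 1 and 2 of both genotypes lie above CD8 samples 3 to 5, and control and cKO samples overlap except for Dntt in DP cells.

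Set against the DP control mean, the CD8 samples kept different shares of these mRNAs. In the CD8 samples numbered 1 and 2 of both genotypes *Rag1* was at 0.9751% to 1.52% of the DP control mean and *Cd4* at 3.47% to 4.52%. In the 6 samples numbered 3 to 5 *Rag1* was at 0.151% to 0.434% and *Cd4* at 0.213% to 0.606%. *Rag2* was at 2.64% to 4.92% and at 0.202% to 0.602%. These genes were thus higher in the same 4 samples in which the DP marker *Cd4* was higher. *Dntt* was at 3.23% to 6.50% in the first 4 and 1.61% to 2.95% in the other 6, where *Arpp21* was at 8.03% to 9.73% and 2.24% to 4.30%. *Lig4* was at 17.4% to 29.3% and 10.02% to 15.9%. The other 3 DP markers did not split the samples this way: over all 10 CD8 samples *Ets2* was at 14.8% to 21.5%, *Rmnd5a* at 16.2% to 24.6% and *Cd1d1* at 25.2% to 41.6%. Summed over the 6 DP markers the level was 4506 to 5642 CPM in DP control, 564, 705, 549, 510 and 508 CPM in CD8 control 1 to 5, and 611, 687, 532, 554 and 570 CPM in CD8 cKO 1 to 5. *Cd4* was the most abundant DP marker in DP cells and *Rmnd5a* in CD8 cells, and no DP marker was at 0 in all CD8 samples. The study defines CD8 single positive cells as TCRβ+CD4-CD8+, a gate that would remove DP cells. For the RNA-seq samples it names TCRβ+CD8+ only. The part of the DP markers in the levels of *Rag1*, *Rag2* and *Dntt* in CD8 samples was not tested. The decreases of *Rag1*, *Rag2* and *Dntt* from DP to CD8 cells were larger without the samples numbered 1 and 2. That follows from the levels themselves, since these genes were higher in those samples, and says nothing about the DP markers.

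**Figure D2:**
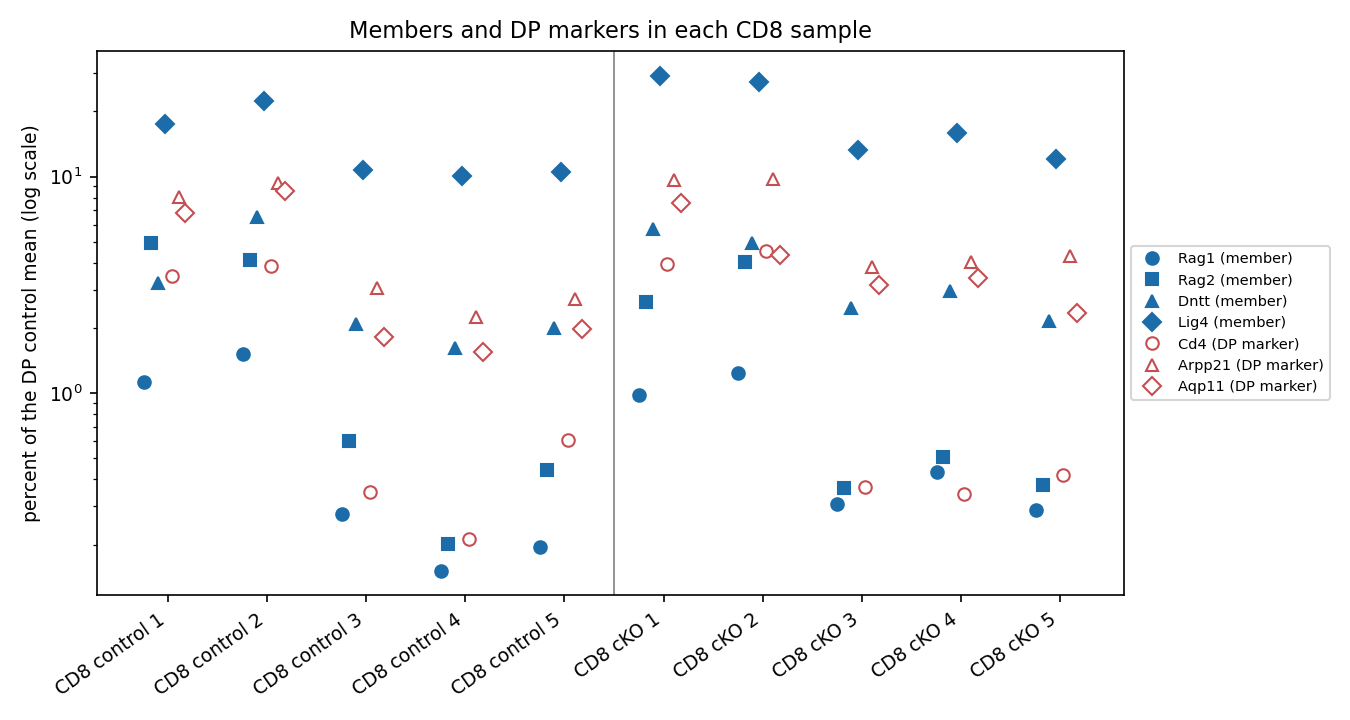
Level of 4 members (filled) and the 3 of 6 DP markers (open) that split the samples by number in each CD8 sample as a percent of the DP control mean (log scale); each symbol is 1 gene in 1 sample. The 3 other DP markers overlap and are not drawn. All 7 genes drawn are higher in the samples numbered 1 and 2 of both genotypes than in the samples numbered 3 to 5, and Lig4 keeps the highest share throughout.

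The lists of other markers were summed in the same way. The 5 B cell markers summed to 18.3 to 28.2 CPM in DP control and 36.001, 13.2, 10.5, 8.52 and 12.6 CPM in CD8 control 1 to 5, with *Cd79b* the most abundant by group mean. The highest *Pax5* value among the CD8 controls was 14.1 CPM, above their highest *Cd79b* value of 10.7 CPM. The 5 myeloid markers summed to 24.8 to 56.3 CPM in DP control and 9.46, 8.09, 3.29, 3.97 and 3.98 CPM in CD8 control 1 to 5, led by *Lyz2* in DP control and *Mpeg1* in CD8 control samples. In both genotypes 1 of the 5 B cell markers (*Pax5*) and 3 of the 5 myeloid markers (*Lyz2*, *Csf1r* and *Mpeg1*) were higher in all CD8 samples numbered 1 and 2, as was *Il2ra*, 1 of the 5 DN and ISP markers (9.78 to 13.7 against 4.73 to 8.69 CPM). The 5 thymic epithelial markers, led by *Epcam*, summed to 5.16 to 8.56 CPM in DP control and 1.61 to 5.48 CPM in CD8 control, and *Foxn1* was at 0 in all DP samples. Of the 6 erythroid markers all 4 globin genes were at 0 in every sample, and the list summed to at most 0.397 CPM in any sample. The 6 cycling markers summed to 1037 to 1613 CPM in DP control and 491 to 946 CPM in CD8 control, led by *Top2a* and *Mki67*. The 5 mature single positive markers summed to 86.3 to 123 CPM in DP control and 2072, 1689, 3075, 3398 and 2677 CPM in CD8 control, led by *Bcl2* and *S1pr1*. In the CD8 samples the sort for TCRβ+CD8+ cells is meant to remove B cells and myeloid, epithelial and erythroid cells. How many such cells were left in each CD8 sample is not stated. None of these lists was tested for its part in the members' levels.

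The Ku proteins bind DNA ends as a heterodimer, and their mRNAs differed between the cell types in opposite directions. *Xrcc6* was 381, 319 and 324 CPM in the DP control samples and 38.8, 57.5, 33.1, 33.0 and 36.7 CPM in the CD8 control samples. *Xrcc5* was 27.3, 19.3 and 16.2 CPM in DP and 35.5, 37.2, 35.6, 36.7 and 39.2 CPM in CD8 cells. The cell types did not overlap in either gene. The log2 fold change of *Xrcc6* was -3.08 (SE 0.17, adjusted p = 4.28e-08), and that of *Xrcc5* was 0.84 (SE 0.16, adjusted p = 8.01e-04). In TPM the ratio of *Xrcc6* to *Xrcc5* was 18.8, 22.3 and 27.0 in the DP control samples and 1.21 to 2.08 in the CD8 control samples. Among the 10 members *Xrcc6* had the smallest adjusted p in this comparison. Without the samples numbered 1 and 2 the log2 fold changes were -3.30 for *Xrcc6* and 0.84 for *Xrcc5*.

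The mRNAs of DNA-PKcs, the kinase that Ku recruits, and of Artemis, the nuclease that opens the hairpins at coding ends, also went in opposite directions. *Prkdc*, which encodes the kinase, was 89.7, 68.5 and 68.2 CPM in DP control and 158, 167, 185, 172 and 177 CPM in CD8 control samples. Every CD8 sample was above every DP sample, with a log2 fold change of 1.20 (SE 0.11, adjusted p = 3.32e-06). *Dclre1c*, which encodes Artemis, was 123, 98.4 and 103 CPM in DP and 67.3, 66.4, 69.3, 67.4 and 65.7 CPM in CD8 cells. The CD8 samples were close to each other and all below the DP samples, with a log2 fold change of -0.67 (SE 0.10, adjusted p = 1.24e-04). This was near the fold threshold, and without DP control 1 it was -0.57 and no longer called. Without the samples numbered 1 and 2 the values were 1.25 for *Prkdc* and -0.67 for *Dclre1c*. *Dclre1c* overlaps *Suv39h2* on the opposite strand, and the counting used strand.

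The last step joins the ends. DNA ligase IV (*Lig4*) seals them in complex with XRCC4, and XLF (*Nhej1*) aids the complex. *Lig4* was 144, 70.1 and 74.8 CPM in the DP control samples and 16.8, 21.5, 10.3, 9.65 and 10.1 CPM in the CD8 control samples. All CD8 samples were below all DP samples, DP control 1 was about as far above its group as CD8 samples 1 and 2 were above theirs, and the log2 fold change was -2.80 (SE 0.30, adjusted p = 9.23e-06), or -3.26 without the samples numbered 1 and 2. *Xrcc4* was 19.0, 13.6 and 13.8 CPM in DP and 9.45 to 12.9 CPM in CD8 control samples. Its log2 fold change of -0.49 (SE 0.18, adjusted p = 0.0291) was under the fold threshold, and it was the 1 member not called, with -0.53 without the samples numbered 1 and 2. The ratio of *Lig4* to *Xrcc4* in TPM was 1.95 to 2.88 in DP and 0.284 to 0.712 in CD8 control samples. *Nhej1*, the member with the fewest fragments in DP cells, was 5.72, 5.65 and 6.80 CPM in DP and 5.16, 2.35, 2.67, 2.56 and 1.35 CPM in CD8 control samples. CD8 control 1 lay close to the DP samples and the other 4 well below. The log2 fold change was -1.10 (SE 0.36, adjusted p = 0.0203) and -1.47 without the samples numbered 1 and 2 (adjusted p = 0.00190). Without DP control 3 it was -0.996 and not called (adjusted p = 0.0740), and the exact permutation test gave p = 0.0536. With the replicate block *Nhej1* was not called either, though that block joins DP and CD8 controls by number alone. Deviations of same-numbered DP and CD8 controls from their group means correlated at -0.131 to 0.0401.

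**Figure D3:**
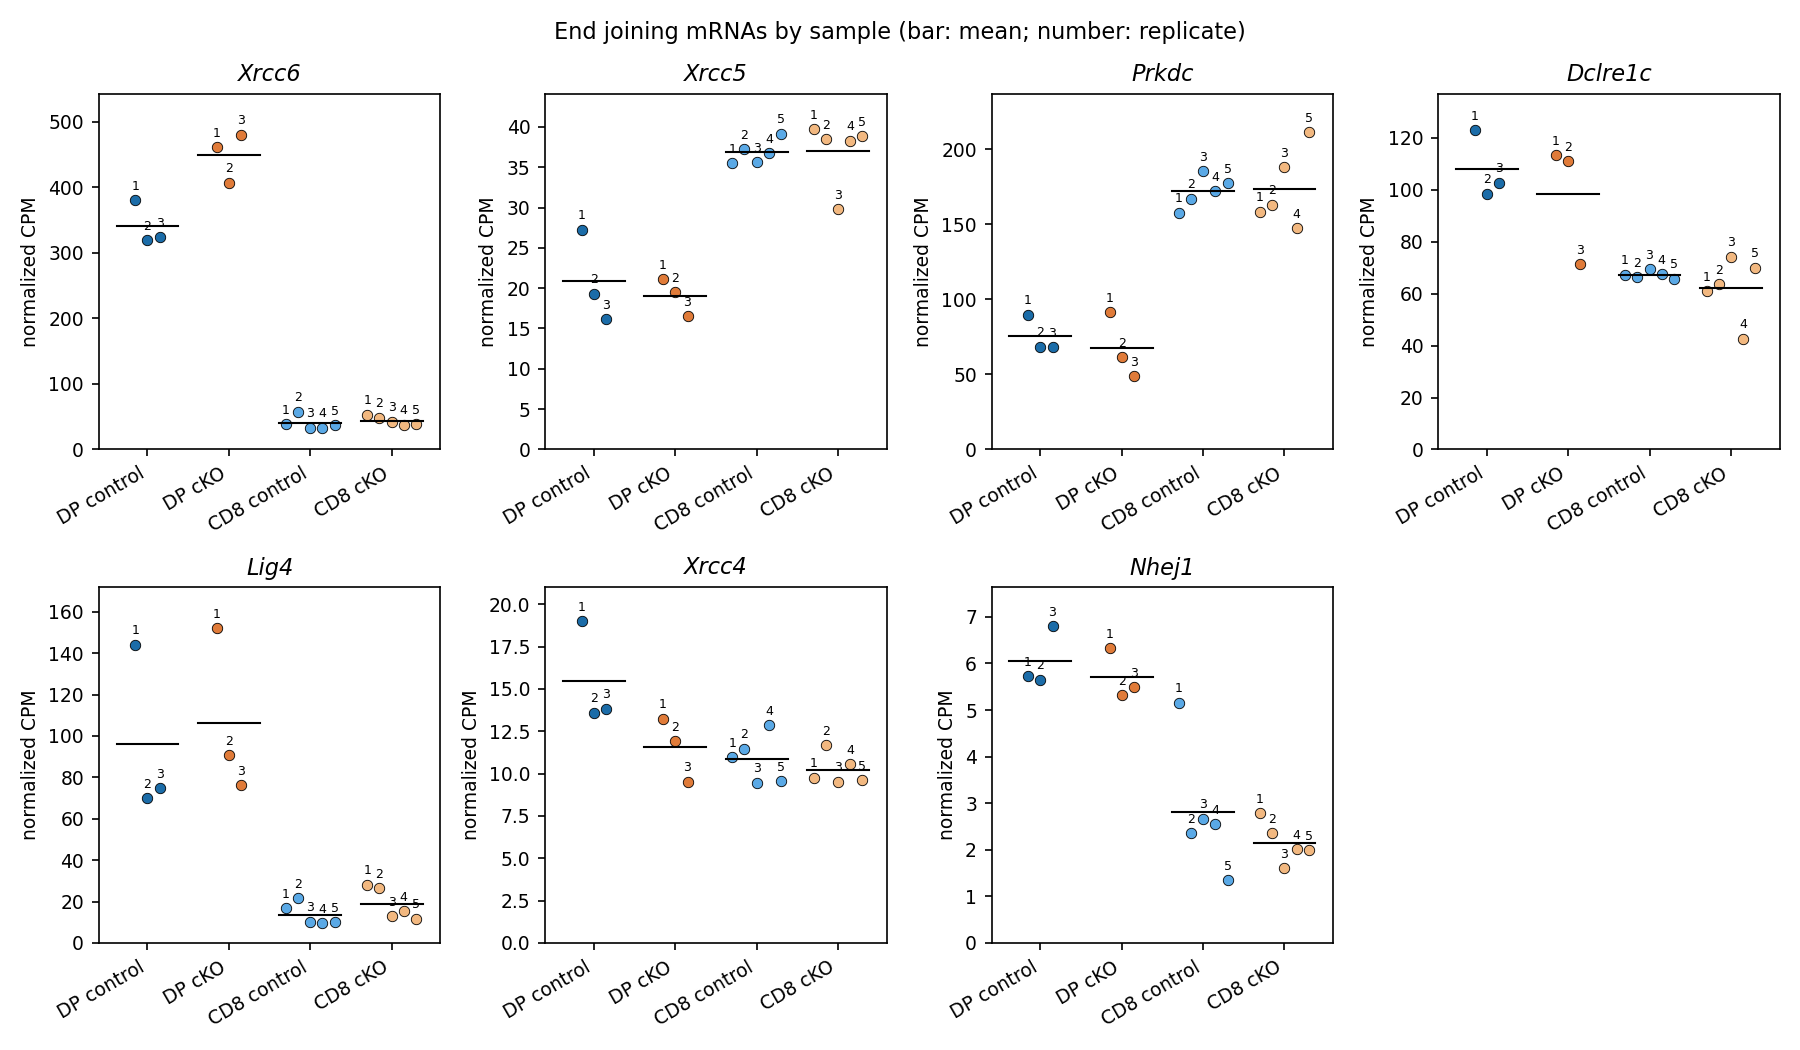
Normalized CPM of the 7 end joining members in each sample of the 4 groups on linear axes from 0; dots are samples with their replicate number and bars are group means. Xrcc6 and Lig4 are lower and Xrcc5 and Prkdc higher in every CD8 sample than in any DP sample, and Xrcc6 is higher in all 3 DP cKO samples than in the 3 DP controls.

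**Figure D4:**
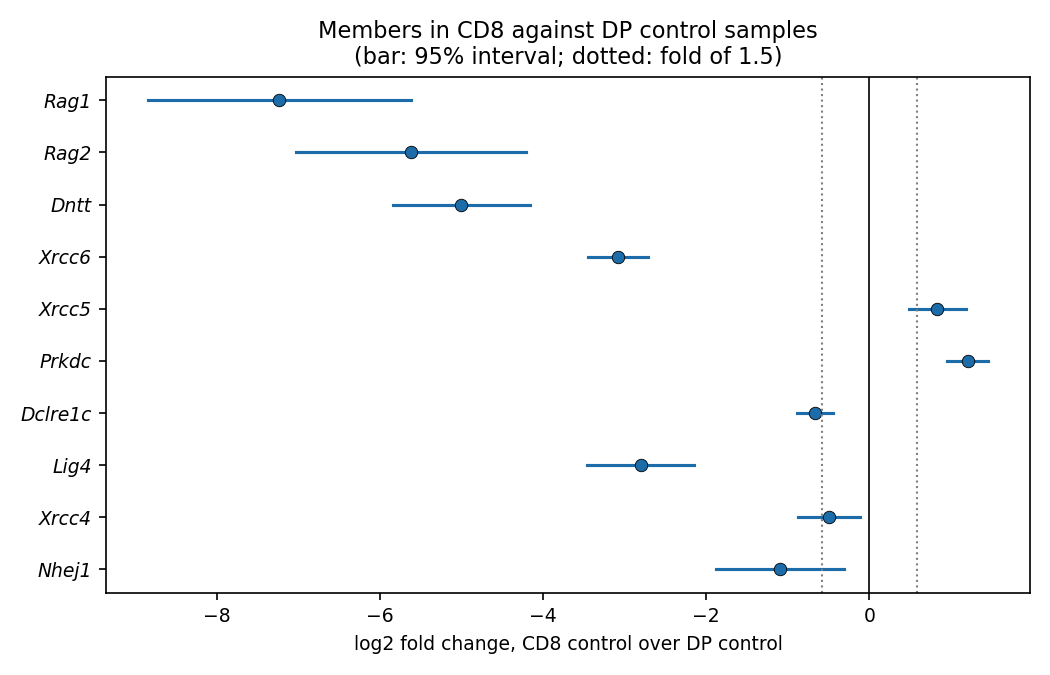
Log2 fold change of each member in CD8 control (n = 5) over DP control samples (n = 3) from edgeR, with 95% intervals as bars and the fold threshold of 1.5 as dotted lines. The values run from -7.23 for Rag1 to 1.20 for Prkdc.

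The 4 genes most like *Rag1* and *Rag2* in pattern were named by the root mean square difference in centred log2 CPM over the 16 samples, among 11325 genes. For *Rag1* these were *Slc7a11* (0.64), *Cd4* (0.73), *Rag2* (0.74) and *Endou* (0.83). For *Rag2* they were *Cd4* (0.45), *Endou* (0.58), *Rag1* (0.74) and *Gpr162* (0.79). *Rag1* and *Rag2* were thus each among the 4 genes nearest to the other, with *Cd4* nearer still to both. The difference between *Rag1* and *Dntt* was 1.29 and between *Rag2* and *Dntt* 1.07.

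Within 100 kb of the *Rag* pair the DP table lists 3 other genes. *B230118H07Rik* overlaps *Rag2* on the opposite strand, which is the strand of *Rag1*. It was 9.98 to 14.7 CPM in DP control and 0 to 1.03 CPM in CD8 control samples (log2 fold change -4.77, adjusted p = 7.03e-06 by edgeR). How far transcripts of the *Rag* genes entered its count was not measured. *Traf6*, a signalling gene 28888 bases away, was 159 to 206 CPM in DP and 151 to 200 CPM in CD8 control samples (log2 fold change -0.13, adjusted p = 0.394). *Prr5l*, 64753 bases away, was 0.0567 to 0.627 CPM in DP and 1.89 to 2.90 CPM in CD8 control samples (log2 fold change 2.83, adjusted p = 0.00110). The call of *Prr5l* was lost without the CD8 samples numbered 1 and 2, by the TPM threshold, at a log2 fold change of 2.78, and likewise with the male CD8 controls alone (2.74). The 3 neighbours thus went 3 ways: lower with the *Rag* genes, level, and higher.

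The other genes of these pathways were counted by list. Of 8 accessory end joining genes 4 were called lower and 2 higher in CD8 than in DP control cells, with a median log2 fold change of -0.56. *Paxx*, a Ku binding scaffold (-1.13, adjusted p = 3.03e-05), and *Aplf* (-1.07, adjusted p = 4.78e-04) fell the most. The DNA polymerases that fill gaps at ends were higher, *Poll* by 2.62 (adjusted p = 1.63e-06) and *Polm* by 0.60 (adjusted p = 0.00426). *Poll* was 1.59, 2.88 and 2.097 CPM in DP control and 12.02 to 14.5 CPM in CD8 control samples. The call of *Polm* was at the fold threshold. It was lost without the CD8 samples numbered 1 and 2 (0.52), and without DP control 1 (0.55), DP control 2 (0.54), CD8 control 1 (0.55) or CD8 control 5 (0.57), with the male CD8 controls alone (0.37), and with all 4 groups in one fit (0.58).

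Of 14 break sensing and signalling genes 1 was lower and 5 were higher, with a median of 0.27. *Atm*, the kinase that signals double strand breaks, had a log2 fold change of 1.95 (adjusted p = 1.40e-06), from 97.6, 62.4 and 60.3 CPM in DP control to 231 to 303 CPM in CD8 control samples. *Mdc1* followed at 1.05 (adjusted p = 3.52e-04), and the histone gene *H2afx* was lower at -0.78 (adjusted p = 0.00611). The call of *H2afx* was lost without DP control 2, where the log2 fold change was -0.39, and with the male CD8 controls alone (-0.73, adjusted p = 0.0516). Of 5 alternative end joining genes only *Rbbp8* (CtIP) was called, lower at -0.69 (adjusted p = 0.00109), with a list median of -0.41. Of 9 homologous recombination genes 1 was lower, *Rad54l* (-0.98, adjusted p = 0.00156), and 2 were higher, *Palb2* (0.93, adjusted p = 0.00103) and *Brca2* (1.10, adjusted p = 0.00263). The median of that list was -0.22.

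Of 5 RAG cofactor and turnover genes 3 were lower, with a median of -1.45. *Hmgb2* and *Hmgb1*, DNA bending proteins that aid RAG cutting, fell by 2.60 (adjusted p = 6.18e-08) and 1.89 (adjusted p = 6.09e-08) on the log2 scale. *Hmgb2* was 387, 504 and 391 CPM in DP control and 52.6 to 88.6 CPM in CD8 control samples. The value of *Hmgb1* may be affected by near-identical copies in the genome that take up its fragments, which was not measured. Of 12 regulators of the *Rag* and *Dntt* loci 4 were lower and 2 higher, with a median of -0.45. *Foxo1*, a forkhead factor that acts on *Rag* genes, was 84.8 to 93.8 CPM in DP and 520 to 787 CPM in CD8 control samples (log2 fold change 2.92, adjusted p = 3.87e-08). *Lef1* was also higher (1.51, adjusted p = 6.33e-06), while *Myb* (-1.82, adjusted p = 2.62e-05) and the E protein gene *Tcf12* (-0.83, adjusted p = 3.54e-05) were lower. Regulators of these loci were thus found on both sides. Over the 6 lists 25 of 53 genes were called, beside 44.3% of all genes tested.

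The second comparison asks whether loss of Tox4 changed these mRNAs in DP cells. By edgeR's quasi-likelihood test 0 of the 10 members were called, beside 0.145% of the 11748 genes tested (17 genes). At an unadjusted p under 0.05 there was 1 member, *Xrcc6*, beside 9.18% of all genes, and DESeq2 called 0. With the replicate number as a block, so that the samples were paired, edgeR called 131 genes in place of 17 and again 0 members, with 3 members at an unadjusted p under 0.05, beside 16.5% of all genes. The log2 fold changes ran from -0.42 (*Xrcc4*) to 0.40 (*Xrcc6*), with a median of -0.11 over the members and -0.00115 over all genes.

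*Xrcc6* was 461, 407 and 481 CPM in the DP cKO samples, above 381, 319 and 324 CPM in the controls. Its log2 fold change was 0.40 (SE 0.11, 95% interval 0.14 to 0.65), with an adjusted p of 0.279 by edgeR, and 0.0637 with the samples paired. *Dntt* was 1529, 1598 and 1572 CPM in DP cKO samples, also above all 3 controls, with a log2 fold change of 0.08 (SE 0.10). *Xrcc4* was 13.2, 11.9 and 9.52 CPM in DP cKO samples, below all 3 controls, with a log2 fold change of -0.42 (SE 0.20). These 3 of 10 members did not overlap between the genotypes, each with an exact permutation p of 0.1, the smallest that 3 samples against 3 allow. Over all genes tested 14.5% did not overlap either. The 3 members at an unadjusted p under 0.05 in the paired fit were *Xrcc6* (log2 fold change 0.40, 95% interval 0.21 to 0.59), *Xrcc4* (-0.42, 95% interval -0.77 to -0.07) and *Rag1* (-0.24, 95% interval -0.45 to -0.04), none with an adjusted p under 0.05.

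The recombinase genes overlapped between the genotypes. *Rag1* was 7759, 6353 and 6358 CPM in DP cKO samples, lower than the control of the same number in all 3 pairs, with a log2 fold change of -0.24 (95% interval -0.55 to 0.07). *Rag2* was 269, 122 and 141 CPM, where cKO 1 was as high as control 1 and the other cKO samples were below it, with a log2 fold change of -0.09 (95% interval -0.80 to 0.63). *Lig4* showed the same split by number, 152, 90.8 and 76.1 CPM in DP cKO samples, higher than the control of the same number in all 3 pairs, with a log2 fold change of 0.14 (95% interval -0.58 to 0.87). *Xrcc5*, *Prkdc*, *Dclre1c* and *Nhej1* had log2 fold changes of -0.14, -0.16, -0.13 and -0.09.

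Marker lists differed between the DP genotypes as well. The 5 DN and ISP markers summed to 178, 171 and 140 CPM in DP control and 299.95, 229 and 309 CPM in DP cKO samples, with *Notch3* the most abundant. This rise was that of *Notch3*, at 121, 124 and 101 CPM in DP control and 249, 194 and 256 CPM in DP cKO samples. *Il2ra* (12.4 to 21.2 against 8.52 to 10.6 CPM) and *Kit* (3.004 to 5.44 against 1.15 to 2.40 CPM) were lower in every DP cKO sample, and *Ptcra* and *Hes1* overlapped. The 5 mature single positive markers summed to 123, 105 and 86.3 CPM in DP control and 61.8, 62.5 and 58.9 CPM in DP cKO samples. The 5 thymic epithelial markers summed to 5.16, 5.96 and 8.56 CPM in DP control and 4.55, 3.27 and 4.64 CPM in DP cKO samples. None of these 3 sums overlapped between the genotypes, whereas the cycling markers (1548, 1613 and 1037 against 2573, 1493 and 1493 CPM) and the DP markers (5642, 4506 and 4865 against 5264, 4253 and 4542 CPM) did. The sums of the B cell, myeloid, erythroid and gamma delta T cell markers overlapped too. Of all single genes tested in DP cells 14.5% did not overlap. The DP cells were sorted, and a gate for CD4 and CD8 double positive cells is meant to remove DN, ISP, single positive and epithelial cells. How many such cells were left in each DP sample is not stated. The part of these lists in the level of *Xrcc6* was not tested.

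The third comparison asks the same in CD8 cells. By edgeR 0 of the 10 members were called, beside 0.0980% of the 11227 genes tested (11 genes). At an unadjusted p under 0.05 there were 0 members, beside 5.60% of all genes, and DESeq2 called 0. With the replicate number as a block edgeR called 31 genes in place of 11, or 0.276% of those tested, and again 0 members. The median log2 fold change was -0.01 over both the members and all genes. In the CD8 cKO samples 1 to 5 *Rag1* was 78.6, 99.97, 24.7, 34.98 and 23.4 CPM, *Rag2* 4.96, 7.59, 0.687, 0.949 and 0.704 CPM and *Dntt* 84.8, 72.6, 36.5, 43.5 and 31.9 CPM. The cKO samples 1 and 2 were again above cKO samples 3 to 5, and the genotypes overlapped in all 3 genes. The log2 fold change was -0.01 for *Rag1* (95% interval -1.29 to 1.26), -0.33 for *Rag2* (95% interval -2.08 to 1.42) and 0.24 for *Dntt* (95% interval -0.53 to 1.01).

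*Lig4* was 28.2, 26.3, 12.8, 15.3 and 11.6 CPM in the CD8 cKO samples, higher than the control of the same number for all 5 numbers although the groups overlapped. Its log2 fold change was 0.47 (95% interval -0.15 to 1.09, adjusted p = 0.979 by edgeR). With the replicate number as a block the interval of *Lig4* was narrower and lay above 0, and the gene was again not called. *Xrcc6*, *Xrcc5*, *Prkdc*, *Dclre1c*, *Xrcc4* and *Nhej1* had log2 fold changes of 0.14, 0.00350, 0.01, -0.11, -0.09 and -0.37. The intervals of the first 5 of these lay within -0.40 to 0.48, inside the fold threshold, while that of *Nhej1* ran from -1.12 to 0.37.

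Without the CD8 samples numbered 1 and 2, 3 samples were left in each genotype and 9 members passed the filter on low counts, *Rag2* not among them. Again 0 members were called by edgeR, with 3 at an unadjusted p under 0.05. These were *Rag1* with a log2 fold change of 0.74 (SE 0.23, adjusted p = 0.348), *Dntt* with 0.43 (SE 0.16, adjusted p = 0.408) and *Lig4* with 0.42 (SE 0.17, adjusted p = 0.449). At this threshold there were 10.6% of all genes tested. In *Rag1*, *Dntt*, *Lig4* and *Xrcc6* all 3 cKO samples lay above all 3 controls, while 17.2% of all genes did not overlap. The library labelled cKO replicate 4 was the highest of the 6 in *Rag1*, *Dntt* and *Lig4*. The log2 fold changes of the other 6 members ran from -0.20 (*Nhej1*) to 0.21 (*Xrcc6*). The sign of *Rag1* in CD8 cells thus turned with the samples numbered 1 and 2. The 3 of 4 gamma delta T cell markers found in the tables, led by *Sox13*, summed to 9.67, 7.99, 8.73, 4.73 and 6.69 CPM in CD8 control and 31.1, 15.96, 16.2, 16.6 and 21.0 CPM in CD8 cKO samples without overlap, the library labelled cKO replicate 4 included. The DN and ISP markers summed to 68.8 to 115 CPM in control and 104 to 144 CPM in cKO samples, with *Kit* the most abundant. The sort for TCRβ+CD8+ cells would remove gamma delta T cells, DN cells and ISP cells, which carry little or no TCRβ on their surface. The study gives a lower bound on the purity of its sorts, but not how many such cells were left in each sample. The part of these lists was not tested.

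**Figure D5:**
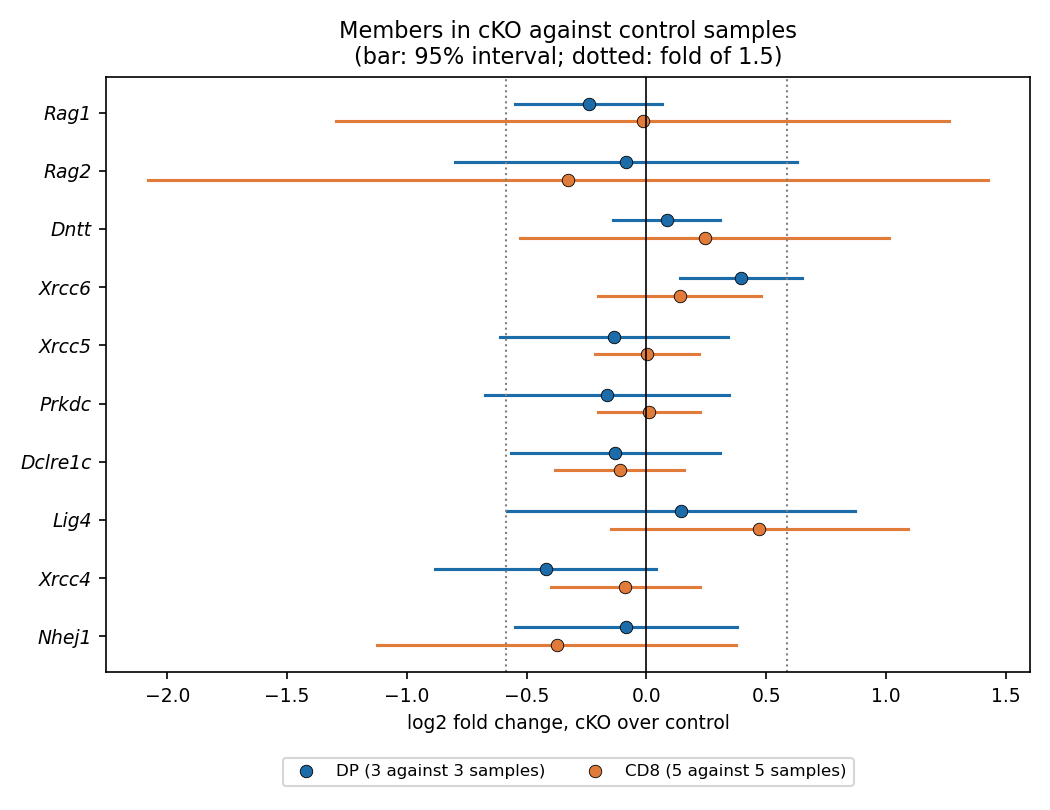
Log2 fold change of each member in cKO over control samples from edgeR in DP cells (3 against 3 samples) and CD8 cells (5 against 5 samples), with 95% intervals as bars and the fold threshold of 1.5 as dotted lines. All intervals but that of Xrcc6 in DP cells include 0, and those of Rag1 and Rag2 in CD8 cells are the widest.

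Whether the effect of the knockout differed between the cell types was tested in all 16 samples as an interaction. By edgeR 0 of the 10 members were called, beside 0.107% of the 12131 genes tested (13 genes), with 0 at an unadjusted p under 0.05, beside 5.27% of all genes, and 0 by DESeq2. The differences ran from -0.28 (*Nhej1*) to 0.33 (*Lig4*) on the log2 scale, and that of *Xrcc6* was -0.26 (95% interval -0.73 to 0.21). Without the CD8 samples numbered 1 and 2 again 0 were called, and the largest difference was 0.97 for *Rag1* (adjusted p = 0.388). Of the 53 genes on the 6 lists 0 were called by edgeR in DP cells (7 at an unadjusted p under 0.05, or 13.2% beside 9.18% of all genes), 0 in CD8 cells (2, or 3.77% beside 5.60%) and 0 for the difference (1, or 1.89% beside 5.27%), and DESeq2 called 0 in each. The list medians in DP cells were -0.09 for accessory end joining, 0.04 for break sensing, 0.16 for alternative end joining, 0.22 for RAG cofactors, 0.01 for the regulators and 0.35 for homologous recombination. In CD8 cells they were -0.03, 0.01, 0.08, 0.04, 0.06 and 0.04 in the same order.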

How the data were processed

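Poly(A) RNA of DP and CD8 thymocytes was sequenced from strand-marked libraries. The authors trimmed reads with fastp 0.13.1, aligned them with HISAT2 2.1.0 and counted fragments on exons with featureCounts 1.6.1 in strand-specific mode, and the counts were deposited without normalization. The methods name mm10 for DP cells, and the labels name it for all samples. Gene positions and exonic lengths were taken from the DP table for both cell types.

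All levels, changes and p-values come from scripts run here on these counts. The test was the quasi-likelihood F test of edgeR 4.0.16 under R 4.3.3, after TMM normalization and filterByExpr, with Benjamini-Hochberg adjustment over all genes tested, with only the groups compared in each fit and no covariates. A call required an adjusted p below 0.05, a change of 1.5 times or more and a mean of 1 TPM or more. Single genes were also compared by 2-sided exact permutation tests. The scripts were tested on simulated counts. No 2 samples of a group agreed within sampling noise. The library protocol describes no molecular identifiers, so a count need not be a count of separate molecules.

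The genes named are the 10 members and *Tox4*, up to 2 called genes in each direction per pathway list, taken by size of the log2 fold change from DP to CD8 control cells, the 4 genes nearest in pattern to *Rag1* and *Rag2*, every gene within 100 kb of the *Rag* genes, genes overlapping a member, the sex genes, and from the cell type markers the most abundant of each list and those that separated or failed to separate the samples numbered 1 and 2 or the genotypes. Also named are *Cd8a*, as a check of the labels, and *Foxn1*, which was at 0 in all DP samples. Members and lists were chosen with earlier results of these data known.

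Replicate numbers occur in both genotypes, in the labels. Deviations from the group means correlated between DP samples of the same number at 0.120 to 0.643 over the genes tested in DP cells, above 0.1 in every pair, so by that rule the numbers were taken to pair the DP samples. Samples of different numbers ran from -0.476 to 0.324, and only 2 of the 6 samples correlated best with their own number, so the pairing is weakly supported. Over the genes tested in all 4 groups the lowest such correlation was 0.0959.

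Alternatives were RLE and upper quartile normalization, DESeq2 1.42.0, a block for replicate number, low counts kept, the adjusted p alone, all 4 groups in one fit, each sample left out in turn, and CPM per kilobase for levels. Leaving out the CD8 samples numbered 1 and 2, or those numbered 1, or from the CD8 and DP comparison those numbered 1, 2 and 5, was added after seeing the data. Figures were drawn with matplotlib 3.10.9. Besides the count tables only RefSeq promoter sequences were used here.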

Additional observations from a re-analysis of the deposited data

Results flagged for a closer look

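In groups of 5 samples, a sample was singled out when its gap to the nearest other sample took an unusually large part of the range of its group. Of 22 groups examined, the 10 members and *Tox4* in CD8 control and CD8 cKO samples, 2 held such a sample, and chance alone gives about 1 in 20. *Xrcc6* was 57.5 CPM in CD8 control 2, against 33.0 to 38.8 CPM in the other CD8 controls. *Xrcc5* was 29.8 CPM in CD8 cKO 3, against 38.3 to 39.7 CPM in the other CD8 cKO samples. The groups of 3 DP samples were not examined in this way.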

How the results depend on the processing

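The number of genes called in the cKO comparisons depended on the method. For cKO against control in DP cells it was 17, and 160 by DESeq2, 131 with the replicate block, 74 with low counts kept, 41 with all 4 groups in one fit, and 0 to 8 with single samples left out. In CD8 cells it was 11, and 53 by DESeq2, 31 with the replicate block, 5 without the CD8 samples numbered 1 and 2, 5 without those numbered 1, and 4 to 20 with single samples left out. For the difference of the cKO effect it was 13, and 3 by upper quartile normalization, 37 by DESeq2, 33 with the replicate block, 5 without the CD8 samples numbered 1 and 2, 6 without those numbered 1, and 0 to 11 with single samples left out. The cause was not tested.

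Some log2 fold changes near 0 changed sign. In CD8 cells that of *Xrcc5* was 0.00350, and -0.00195 by upper quartile normalization, -0.00193 with the replicate block, -0.0521 without the CD8 samples numbered 1 and 2 and -0.0240 without those numbered 1. That of *Rag1* was -0.01, and 0.28 with the replicate block, 0.74 without the CD8 samples numbered 1 and 2 and 0.10 without those numbered 1. For the difference of the cKO effect *Rag2* was -0.15, and 0.0947 without the CD8 samples numbered 1 and 2 and 0.22 without those numbered 1, while *Dntt* was 0.16, and -0.0406 without those numbered 1.

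Leaving out single samples gave these ranges. In DP cells *Rag2* ran from -0.52 to 0.23, *Lig4* from -0.20 to 0.55, *Xrcc5* from -0.30 to 0.0954, *Prkdc* from -0.45 to 0.0382 and *Dclre1c* from -0.25 to 0.0747, while *Rag1* (-0.34 to -0.15), *Dntt* (0.0477 to 0.10), *Xrcc6* (0.35 to 0.48), *Xrcc4* (-0.53 to -0.25) and *Nhej1* (-0.16 to -0.000251) kept their sign. In CD8 cells *Rag1* ran from -0.39 to 0.56, *Rag2* from -1.02 to 0.31, *Xrcc5* from -0.0231 to 0.0735 and *Prkdc* from -0.0683 to 0.0646, while *Dntt* (0.0189 to 0.71), *Lig4* (0.28 to 0.70), *Nhej1* (-0.56 to -0.0251), *Xrcc6* (0.0602 to 0.31), *Xrcc4* (-0.14 to -0.0220) and *Dclre1c* (-0.18 to -0.00407) kept their sign. For the difference of the cKO effect *Rag1* ran from -0.14 to 0.80, *Rag2* from -0.84 to 0.46, *Dntt* from -0.0666 to 0.62, *Lig4* from -0.0753 to 0.68, *Xrcc5* from -0.0953 to 0.29, *Prkdc* from -0.0145 to 0.46, *Dclre1c* from -0.17 to 0.13 and *Nhej1* from -0.47 to 0.0612, while *Xrcc4* (0.16 to 0.44) and *Xrcc6* (-0.34 to -0.0924) kept their sign.

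From DP to CD8 control cells, *Nhej1* had a log2 fold change of -0.88 (adjusted p = 0.109) with the replicate block and was not called. The block ended or made no other call of a member. In this comparison the block rests on the numbers alone, since same-numbered DP and CD8 controls correlated at -0.131 to 0.0401. With only the CD8 controls numbered 3 and 4 *Traf6* changed sign, from -0.13 to 0.0623. CD8 samples of the same number correlated at 0.0908 to 0.365 and those of different numbers at -0.453 to 0.421, with 5 of 10 samples correlating best with their own number, and as not every pair was above 0.1 the numbers were not taken to pair the CD8 samples. The number is not without content, since samples of a number shared their sex and the split of 1 and 2 from 3 to 5. With the replicate block no member was called in CD8 cells. *Lig4* had a log2 fold change of 0.44 there (95% interval 0.15 to 0.74, adjusted p = 0.295 by edgeR's quasi-likelihood test).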
